A study of Mus musculus with 15 samples.

Results

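Loricrin (Lor), involucrin (Ivl), cornifelin (Cnfn), corneodesmosin (Cdsn), keratinocyte proline-rich protein (Kprp), keratinocyte differentiation-associated protein (Krtdap), suprabasin (Sbsn), dermokine (Dmkn), cysteine-rich C-terminal protein 1 (Crct1) and sciellin (Scel) are proteins that keratinocytes make late, as they stratify and cornify. These 10 genes were taken by symbol from a table of 23420 mouse genes, and all 10 were found and passed the filter on low counts in every comparison. The rule uses no measured value, but the genes were chosen with earlier results of these data known. They were described in RNA-seq libraries of epidermis and tongue from newborn mice at postnatal day 1. The knockout (KO) animals carry the genotype meant to lack all 7 HAT/DESC proteases, with the genes Tmprss11a, b, c, d, e, f and g of 1 cluster targeted by multiplexed gene editing, and the control animals of the same strain label are wild type (WT). There were 4 KO and 3 WT epidermis libraries, and 4 KO and 4 WT tongue libraries, and the labels name no treatment.

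Cornification turns the outermost keratinocytes into dead, cross-linked plates. Transglutaminases join scaffold proteins such as involucrin and loricrin into an envelope under the cell membrane, corneodesmosomes hold the plates together until they are shed, and secreted proteins of the upper layers accompany the process. Skin epidermis makes a loricrin-rich envelope, while the lining of the tongue is a stratified epithelium with its own keratins and small proline-rich proteins, over a body of muscle.

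The libraries held 10117819 to 17819195 counts. Tmprss11b, one of the targeted genes, averaged 0.853 ± 0.368 CPM (the count relative to the scaled library size) in KO and 3.61 ± 0.0779 CPM in WT epidermis (SD, n = 4 and 3), and 13.8 ± 2.81 CPM in KO and 56.8 ± 6.54 CPM in WT tongue (SD, n = 4 each), with no overlap between KO and WT in either tissue. Of the 6 targeted genes in the table, KO and WT did not overlap for 3 in epidermis (Tmprss11b, Tmprss11d and Tmprss11e) and for all but Tmprss11g in tongue, the KO libraries being lower. Tmprss11f, the most abundant of them in epidermis, still averaged 154 ± 53.1 CPM in KO and 247 ± 39.3 CPM in WT epidermis, where Tmprss11a averaged 1.91 and 2.18 CPM and Tmprss11g 11.1 and 8.27 CPM, all 3 overlapping. The library epidermis WT 1 stood apart. Its 2 mitochondrial ribosomal RNAs took 44.6% of its counts, against 20.1% to 23.8% in the other 6 epidermis libraries, and the geometric mean of 7 keratinocyte genes (Krt5, Krt14, Trp63, Cdh1, Perp, Dsp and Jup) was 701 CPM in it, against 1134 to 1458 CPM in the others. Tongue libraries carried 28724 to 51286 CPM of 8 skeletal muscle markers in sum, against 89.3 to 710 CPM in epidermis libraries, none of the 8 being at 0 in a whole group. Endothelial markers summed to 1.64 to 7.14 CPM in epidermis and 272 to 401 CPM in tongue.

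Lor, Ivl, Kprp and Crct1 belong to the epidermal differentiation complex of chromosome 3, where all 4 are read from the minus strand and span 935.417 kb. Lor is at chr3:92080271-92083142, Ivl at chr3:92570902-92573735, Kprp at chr3:92823074-92827247 and Crct1 at chr3:93014205-93015687 (GRCm38, GENCODE M21). Sbsn (chr7:30751471-30756134), Dmkn (chr7:30763756-30781063) and Krtdap (chr7:30787896-30791097) lie side by side on the plus strand of chromosome 7, with gaps of 7.621 and 6.832 kb between them. Cnfn is at chr7:25367620-25369724 on the minus strand, Scel at chr14:103513342-103612797 and Cdsn at chr17:35552128-35557180, both on the plus strand. Of the 10, Sbsn overlaps another annotated gene, Tmem147os, on the same strand over 4656 bases, and Tmem147os has no entry in the table.

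Promoter sequence from RefSeq (GRCm38.p6), from 250 bases before to 50 after a transcript start, was at hand for 8 of the 10 genes, which excludes Kprp and Crct1. The 7 bases TGAGTCA on either strand (TGACTCA when read on the gene's strand from the other side), the motif of the AP-1 factors that keratinocyte genes are known for, were found in 6 of these 8 genes. It is held by 5.20% of all 32851 promoters in that set, and by 5.95% of all 27025 gene symbols. Cnfn and Cdsn held no such letters in this window. The windows of 20 bases on each side of the motif are shown because they are the feature these promoters share, with the motif in capitals, each read 5′ to 3′ on the gene's strand.

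Lor (chr3:92083164-92083210, minus strand, motif starts 48 bases before the start): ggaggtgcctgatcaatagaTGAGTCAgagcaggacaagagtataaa
Ivl (chr3:92573825-92573871, minus strand, 116 bases before): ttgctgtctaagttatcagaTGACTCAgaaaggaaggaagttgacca
Sbsn (chr7:30751445-30751491, plus strand, 6 bases before): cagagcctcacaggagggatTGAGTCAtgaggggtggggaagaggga
Dmkn (chr7:30763647-30763693, plus strand, 89 bases before): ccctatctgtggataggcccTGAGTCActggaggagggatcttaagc
Dmkn, downstream start (chr7:30776303-30776349, plus strand, 82 bases before): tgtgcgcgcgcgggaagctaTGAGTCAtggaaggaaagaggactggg
Krtdap (chr7:30787804-30787850, plus strand, 81 bases before): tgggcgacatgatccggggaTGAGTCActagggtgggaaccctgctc
Scel (chr14:103513285-103513331, plus strand, 36 bases before): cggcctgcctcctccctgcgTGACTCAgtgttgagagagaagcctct

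The letters TATAAA on either strand (TTTATA in reverse) were found in 3 of the 8 genes, Lor, Ivl and Krtdap, 27, 29 and 30 bases before the start. They are held by 13.6% of all promoters and by 15.7% of all gene symbols. Lor and Ivl held both motifs, and so did Krtdap. The whole promoters of Lor and Ivl are shown with both motifs in capitals, since these 2 genes had the largest folds between the tissues.

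Lor (chr3:92083093-92083392, minus strand): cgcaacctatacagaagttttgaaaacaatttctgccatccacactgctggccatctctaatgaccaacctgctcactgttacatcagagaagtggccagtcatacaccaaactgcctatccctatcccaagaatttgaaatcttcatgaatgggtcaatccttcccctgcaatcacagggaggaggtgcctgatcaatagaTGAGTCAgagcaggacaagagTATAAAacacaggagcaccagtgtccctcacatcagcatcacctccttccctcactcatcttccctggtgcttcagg
Ivl (chr3:92573686-92573985, minus strand): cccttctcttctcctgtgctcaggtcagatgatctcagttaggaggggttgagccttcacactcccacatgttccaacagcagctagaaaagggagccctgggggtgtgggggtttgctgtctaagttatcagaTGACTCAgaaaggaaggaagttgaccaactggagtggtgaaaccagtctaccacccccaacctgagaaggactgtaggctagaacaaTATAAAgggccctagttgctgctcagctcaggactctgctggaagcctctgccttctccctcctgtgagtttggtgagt

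The clearest difference was between the tissues. In WT mice 8 of the 10 genes were higher in epidermis than in tongue by edgeR's quasi-likelihood test with Benjamini-Hochberg adjustment over all genes at 0.05, and none was lower, where 32% of all 16577 genes tested were higher and 31.6% lower. In KO mice 9 of the 10 were higher and none lower, against 32.7% of 16398 genes higher and 31.1% lower. The median log2 difference over the 10 genes was 2.72 in WT and 2.99 in KO, beside 0.03 and 0.07 over all genes tested. Epidermis and tongue libraries did not overlap for 8 of the 10 genes in WT and 9 in KO, where 32.3% and 29.4% of 15739 genes lay wholly higher in epidermis. In these bulk samples fewer keratinocytes and less RNA per keratinocyte cannot be told apart.

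Involucrin, the early scaffold protein of the envelope, differed most. Its levels were 363, 648, 449 and 470 CPM in KO epidermis, and 198, 437 and 535 CPM in WT epidermis. In tongue they were 0.999, 2.09, 1.29 and 1.60 CPM in KO, from 13 to 28 counts a library, and 1.53, 1.05, 2.39 and 1.05 CPM in WT, from 13 to 32 counts. Every epidermis library lay above every tongue library. Ivl was 259-fold higher in WT epidermis than in WT tongue (log2 8.02, SE 0.44, 95% interval of the fold 130.0 to 517, edgeR adjusted p = 5.8e-07), and 324-fold higher in KO epidermis than in KO tongue (log2 8.34, SE 0.30, interval 206 to 508, adjusted p = 4.4e-09).

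Loricrin, the main mass of the epidermal envelope, followed. It measured 975, 1676, 894 and 1410 CPM in KO epidermis, and 2054, 974 and 973 CPM in WT epidermis. Tongue had 91.7, 67.2, 93.3 and 62.7 CPM in KO, and 74.9, 86.2, 38.1 and 60.3 CPM in WT. Epidermis and tongue did not overlap, and the highest of all libraries was epidermis WT 1. The difference was 21.0-fold in WT (log2 4.39, SE 0.39, interval 11.4 to 38.6, edgeR adjusted p = 1.1e-05) and 15.9-fold in KO (log2 3.99, SE 0.27, interval 10.6 to 24.0, adjusted p = 1.7e-07).

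Unlike Ivl, Lor was plainly present in tongue. In KO tongue the ratio of Lor to Ivl CPM was 32.2 to 91.8, and in WT tongue 15.9 to 82.0. In epidermis it was 1.82 to 3.002 in 6 of 7 libraries and 10.3 in epidermis WT 1.

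Kprp, an epidermal proline-rich protein of the same complex as Lor, measured 655, 1112, 356 and 419 CPM in KO epidermis, and 1205, 457 and 442 CPM in WT epidermis. It had 72.4, 58.8, 49.9 and 48.4 CPM in KO tongue, and 55.8, 106, 39.7 and 60.3 CPM in WT tongue. The tissues did not overlap, and the spread within epidermis was wide, with epidermis WT 1 and KO 2 at the top. Kprp was 10.9-fold higher in WT epidermis (log2 3.45, SE 0.45, edgeR adjusted p = 1.4e-04) and 11.2-fold in KO epidermis (log2 3.48, SE 0.34, adjusted p = 3.7e-06). Without epidermis WT 1 the WT log2 difference was 2.79 (edgeR adjusted p = 0.00103).

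Suprabasin and dermokine, secreted proteins of the stratified epidermis encoded next to each other, differed by like amounts. Sbsn had 1109, 1526, 946 and 1222 CPM in KO epidermis and 1051, 1064 and 811 CPM in WT epidermis, against 88.2 to 107 CPM in KO tongue and 79.0 to 105 CPM in WT tongue. Dmkn had 3035, 3833, 4321 and 4293 CPM in KO epidermis and 2286, 3891 and 3584 CPM in WT epidermis, against 232 to 327 CPM in KO tongue and 248 to 370 CPM in WT tongue. For both genes every epidermis library stood above every tongue library. The log2 difference of Sbsn was 3.66 (SE 0.21) in KO and 3.49 (SE 0.20) in WT, and that of Dmkn 3.76 (SE 0.24) in KO and 3.46 (SE 0.27) in WT, with edgeR adjusted p from 4.5e-08 to 4.6e-06.

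Krtdap, the third secreted protein of that stretch of chromosome 7, differed less. It had 1337, 2941, 2261 and 2262 CPM in KO epidermis and 809, 2033 and 2140 CPM in WT epidermis, against 400.2, 515, 230 and 427 CPM in KO tongue and 379, 488, 471 and 519 CPM in WT tongue. The tissues did not overlap, and the closest values were those of epidermis WT 1 and tongue WT 4. The fold was 5.69 in KO (log2 2.51, SE 0.30, edgeR adjusted p = 1.9e-05) and 3.62 in WT (log2 1.85, SE 0.32, adjusted p = 7.9e-04).

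Corneodesmosin, the adhesive glycoprotein of corneodesmosomes, and Crct1, a small cysteine-rich protein of the chromosome 3 complex, differed by 3 to 5 times. Cdsn had 530.5, 594, 348 and 451 CPM in KO epidermis and 515, 377 and 342.2 CPM in WT epidermis, against 120.3, 112, 98.3 and 99.7 CPM in KO tongue and 114, 117, 72.8 and 118 CPM in WT tongue. Crct1 had 378, 1039, 607 and 644 CPM in KO epidermis and 585, 519.7 and 527 CPM in WT epidermis, against 115, 204, 145 and 179 CPM in KO tongue and 110.4, 164, 199 and 222 CPM in WT tongue. Both genes had no overlap between tissues in either genotype. The log2 difference of Cdsn was 2.18 in KO and 1.99 in WT, and that of Crct1 2.07 in KO and 1.67 in WT (edgeR adjusted p from 1.2e-06 to 2.3e-04).

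Sciellin, a protein bound to the envelope, and cornifelin, a small cysteine-rich envelope component, had the smallest differences. Scel measured 187, 284, 328.4 and 350.3 CPM in KO epidermis and 133, 232 and 261 CPM in WT epidermis, against 166, 149, 138 and 152 CPM in KO tongue and 148, 134, 136 and 161 CPM in WT tongue. KO epidermis lay above KO tongue in every library, while epidermis WT 1 lay below every WT tongue library. Scel was 1.94-fold higher in KO epidermis (log2 0.96, SE 0.20, edgeR adjusted p = 0.00123), and its log2 difference in WT was 0.55 (SE 0.22, interval 0.05 to 1.04, adjusted p = 0.0530).

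The WT result of Scel depended on single libraries. Without epidermis WT 1, the lowest of its group, the log2 difference was 0.78 and passed the test (edgeR adjusted p = 2.9e-05). Over all single libraries left out, it ran from 0.34 to 0.78, with edgeR adjusted p up to 0.222. DESeq2 called Scel with all libraries (adjusted p = 0.0461). In 6 of 6 animals with both tissues the epidermis library was above the tongue library, by 0.17 to 1.26 on the log2 scale. The animal of epidermis WT 1 gave no tongue library, so this count leaves that library out.

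Cnfn had 37.7, 54.3, 29.0 and 39.9 CPM in KO epidermis and 27.2, 36.1 and 25.2 CPM in WT epidermis, against 32.9, 14.1, 43.9 and 15.1 CPM in KO tongue and 29.2, 19.2, 7.69 and 14.5 CPM in WT tongue. The tissues overlapped in both genotypes, and tongue varied more than epidermis. The log2 difference was 0.62 in KO (SE 0.35, interval -0.16 to 1.40, adjusted p = 0.145) and 0.77 in WT (SE 0.37, interval -0.05 to 1.59, adjusted p = 0.0919), so folds up to 2.64 and 3.01 lie inside these intervals. Leaving out tongue KO 3 gave 0.97 (edgeR adjusted p = 0.0231), and leaving out tongue WT 1 gave 1.12 (adjusted p = 0.0185). These are the highest tongue libraries of their groups, so leaving them out raises the estimate. Over all single libraries left out, it ran from 0.40 to 0.97 in KO, with edgeR adjusted p up to 0.370. In WT it ran from 0.51 to 1.12, with edgeR adjusted p up to 0.266. With the animal as a block, or within the range of animal numbers with more than 1 library in every group, Cnfn and Scel both passed in WT. Cnfn was at 1.498 and 1.46, where 33.3% and 33.9% of all genes were higher. Both estimates rest on the same WT animals, those that gave both tissues, and are not separate results. Epidermis WT 1, from an animal without a tongue library, does not inform them. The log2 ratio of Cnfn within these animals was 2.23 and 0.80.

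**Figure D1:**
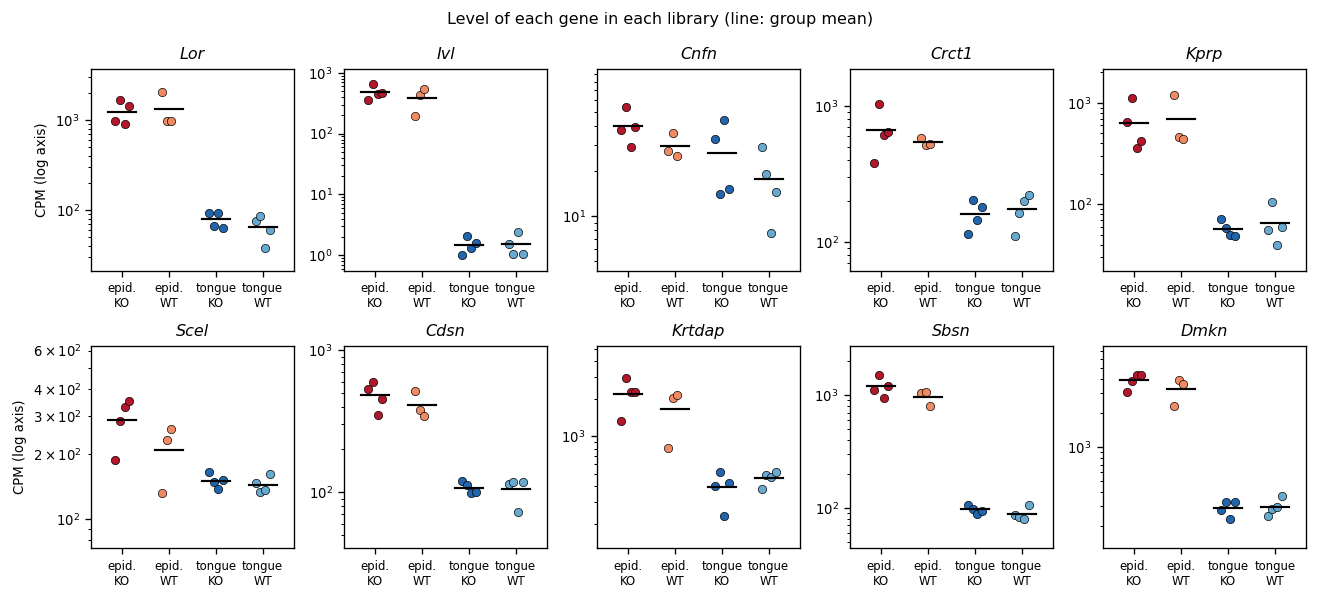
Level of each of the 10 genes in each of 15 libraries (CPM, log axis), with 1 point per library and a line at the group mean, for KO and WT epidermis and KO and WT tongue. Ivl lies between 198 and 648 CPM in epidermis and between 0.999 and 2.39 CPM in tongue, while Cnfn and Scel lie close together in the tissues.

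Animals that gave both tissues allow the ratio within an animal. Over these 6 animals, of which 4 are KO and 2 WT, the log2 ratio of epidermis to tongue was 7.52 to 8.99 for Ivl, 3.26 to 4.68 for Lor, 3.28 to 4.22 for Dmkn, 2.95 to 3.96 for Sbsn and 2.84 to 4.24 for Kprp. It was 1.74 to 3.29 for Krtdap, 1.54 to 2.41 for Cdsn and 1.25 to 2.35 for Crct1. For Cnfn it ran from -0.60 to 2.23, below 0 in 1 animal. These ratios use the same libraries as the tests and are not separate evidence.

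Skin and tongue samples hold different amounts of epithelium, so the genes were also set against keratinocyte transcripts, each library being scaled to the 7 keratinocyte genes named above. This moved the median log2 difference of all genes to -2.11 in WT and -2.37 in KO. On that scale 5 of the 10 genes were higher in epidermis in both genotypes, where 3.25% of genes were higher in WT and 2.96% in KO. They were Ivl (log2 5.87 in KO and 5.75 in WT), Lor (1.58 and 2.48), Dmkn (1.28 and 1.26), Sbsn (1.22 and 1.41) and Kprp (1.07 and 1.57), with edgeR adjusted p from 4.3e-13 to 0.0304.

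Krtdap, Crct1 and Cdsn lost their call on the keratinocyte scale. Their log2 values were -6.8e-05, -0.43 and -0.24 in KO and -0.43, -0.43 and -0.02 in WT. The estimates of Scel and Cnfn changed sign, though that of Cnfn had not passed the test on the TMM scale. Both genes were called lower in epidermis, where 89.4% of genes were lower in KO and 78.5% in WT. Scel was at -1.51 in KO (adjusted p = 1.1e-06) and -1.67 in WT (4.1e-05), and Cnfn at -1.72 in KO (1.3e-05) and -1.32 in WT (0.00861). Relative to the all-gene median of that scale, Scel was at 0.85 in KO and 0.44 in WT, and Cnfn at 0.64 in KO and 0.79 in WT.

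As a ratio to the keratinocyte genes, Scel was 0.211 ± 0.0352 in KO and 0.187 ± 0.0262 in WT epidermis (SD, n = 4 and 3), and 0.601 ± 0.102 in KO and 0.592 ± 0.0625 in WT tongue (SD, n = 4 each). The groups of the 2 tissues lay well apart. Without epidermis WT 1, a setting chosen after seeing the data, the WT log2 difference of Lor on this scale was 1.47, against 2.48 with it, and still passed the test. That of Kprp was 0.33 and no longer passed, and Crct1 (-0.89) and Cdsn (-0.68) were called lower with Cnfn and Scel, where 3.14% of genes were higher and 90.9% lower. How much of each difference comes from the amount of epithelium was not tested.

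**Figure D2:**
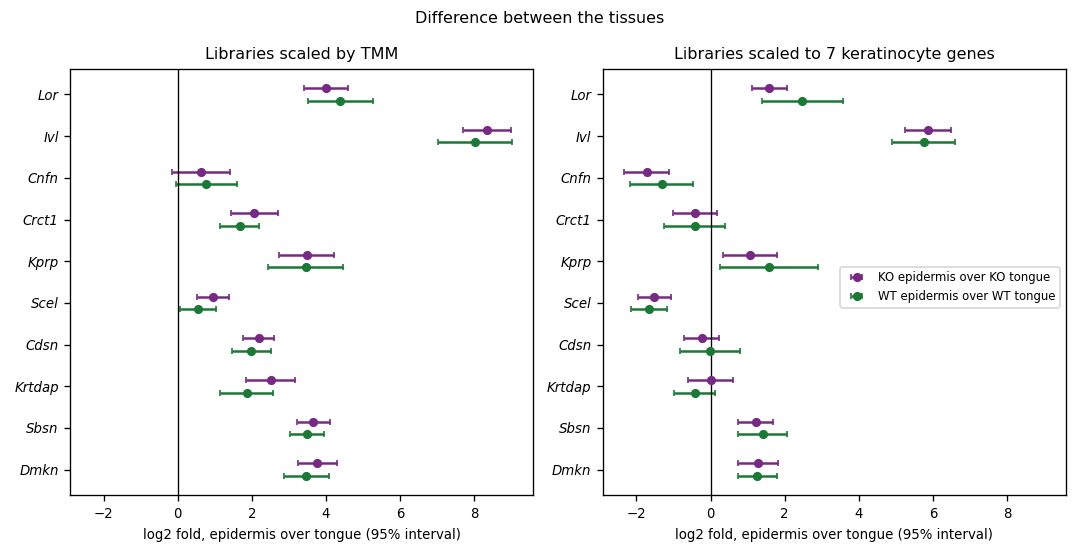
Log2 fold of epidermis over tongue for each of the 10 genes (points, edgeR) with 95% intervals, in KO and WT mice, with libraries scaled by TMM on the left and to 7 keratinocyte genes on the right. Ivl, Lor, Kprp, Sbsn and Dmkn stay above 0 on both scales. The points of Cnfn and Scel lie above 0 on the left and below 0 on the right. Both intervals of Cnfn span 0 on the left.

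Per kilobase of exon, so that genes can be compared with each other, Krtdap led in every group. The length was that of all annotated exons of a gene joined, and the transcripts expressed may be shorter. It was 679 bases for Krtdap, 2192 for Dmkn and 3625 for Sbsn, and the order and shares depend on it. It averaged 3240 and 2446 CPM per kb in KO and WT epidermis, and 579 and 684 CPM per kb in KO and WT tongue. Dmkn was next in epidermis, with 1766 CPM per kb in KO and 1484 in WT, where the ranges of Krtdap and Dmkn overlapped. In tongue, Crct1 was next, with 203 CPM per kb in KO and 220 in WT, below the range of Krtdap and overlapping that of Dmkn (133 and 136 CPM per kb).

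The lower end of the order differed between the tissues. In KO epidermis it ran Ivl, Kprp, Cdsn, Scel and Cnfn, with 251, 233, 180, 115 and 55.9 CPM per kb, neighbours overlapping throughout. In WT epidermis Kprp, Ivl, Cdsn, Scel and Cnfn had 257, 203, 154, 83.3 and 41.1 CPM per kb, and Cdsn, Scel and Cnfn did not overlap. In tongue Scel came 4th, with 60.4 CPM per kb in KO and 57.8 in WT, its range overlapping neither neighbour's. Lor, Cdsn, Cnfn, Sbsn and Kprp followed within 21.0 to 44.2 CPM per kb in KO and 24.0 to 39.4 in WT, each overlapping the next. Ivl was last and apart, at 0.778 CPM per kb in KO tongue and 0.784 in WT tongue.

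As shares of the summed CPM per kb of the 10 genes, Krtdap took 41.5% ± 3.71 in KO and 37.1% ± 12.5 in WT epidermis (SD, n = 4 and 3), and 49.6% ± 7.42 in KO and 54.8% ± 1.44 in WT tongue (SD, n = 4 each). Dmkn took 23.5% in KO and 23.0% in WT epidermis, and 11.6% in KO and 10.9% in WT tongue. Ivl took 3.26% in KO and 3.09% in WT epidermis, and 0.0678% in KO and 0.0646% in WT tongue.

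**Figure D3:**
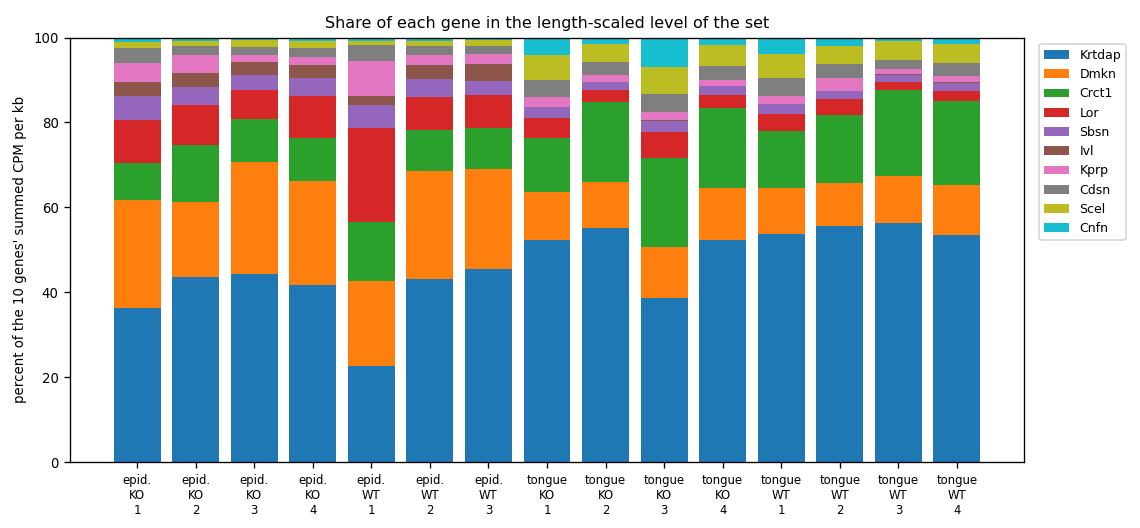
Share of each of the 10 genes (percent) in their summed CPM per kb of exon, with 1 stacked bar per library in the order KO and WT epidermis, then KO and WT tongue. Krtdap and Dmkn together fill 61.4% to 70.7% of 6 epidermis bars and 42.6% of that of epidermis WT 1, where Lor takes 22.0%, and Krtdap and Crct1 fill 59.6% to 76.8% of the tongue bars, with a larger share of Cnfn in tongue KO 3 than in any other library.

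The design asks what the loss of the protease cluster changes. None of the 10 genes passed edgeR's adjusted test in KO against WT epidermis, where 0% of 16073 genes tested did. Of all genes, 187 had an unadjusted p under 0.05, none of them among the 10. This test did not call the targeted Tmprss11b either, although its KO and WT libraries did not overlap. With the range of animal numbers as a block, 1563 of 16073 genes had an unadjusted edgeR p under 0.05. They held 2 of the 10 genes, and none of the 10 was called. DESeq2 called 1 gene of all, not one of the 10. Estimates were above 0 for 8 genes and below 0 for Lor and Kprp, with a median of 0.27 beside 0.00 over all genes. KO and WT libraries overlapped for all 10, where 2.15% of 15739 genes did not overlap.

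The scaffold genes had wide intervals. Lor averaged 1239 ± 369 CPM in KO and 1334 ± 623 CPM in WT epidermis (SD, n = 4 and 3), a log2 difference of -0.14 (SE 0.35, interval -0.93 to 0.66). Ivl averaged 482 ± 120 CPM in KO and 390.4 ± 173 CPM in WT, a difference of 0.28 (SE 0.34, interval -0.49 to 1.04). Cnfn had the smallest unadjusted p, 0.107, with 40.2 ± 10.5 CPM in KO and 29.5 ± 5.79 CPM in WT and a log2 difference of 0.41 (SE 0.23, interval -0.11 to 0.94, edgeR adjusted p = 0.9998).

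Of the others, Scel had the largest estimate, 0.44 (SE 0.30, interval -0.23 to 1.11), from 288 ± 72.4 CPM in KO and 209 ± 67.1 CPM in WT. Krtdap was at 0.38 (SE 0.39), Sbsn at 0.27 (SE 0.25), Crct1 at 0.26 (SE 0.31), Dmkn at 0.23 (SE 0.30) and Cdsn at 0.20 (SE 0.25). Kprp, at -0.18, had the widest interval, -1.24 to 0.88. The 95% interval lay within a 2-fold change either way for 6 of the 10 genes, and that of Ivl, Kprp, Krtdap and Scel reached beyond it.

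Epidermis WT 1 held the lowest value for Ivl, Krtdap, Dmkn and Scel and the highest for Lor and Kprp. Its ratio of Lor to Krtdap was 2.54, against 0.395 to 0.729 in the other 6 epidermis libraries. Without it, 9 estimates were above 0 and only that of Ivl below, at -0.04, with Lor at 0.32 and Kprp at 0.46, and none was called. Epidermis KO 2 had the highest value for 6 genes, and without it 7 estimates were above 0 and the median was 0.13.

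Other marker lists had estimates away from 0 in the same comparison. The 8 muscle markers were all above 0 in KO epidermis, with a median log2 of 1.25, and their sums ranged over 89.3 to 710 CPM in KO and 97.5 to 254 CPM in WT libraries. Of 6 hair follicle markers 5 were above 0, with a median of 1.10 and sums of 37.5 to 560.2 CPM in KO and 32.2 to 172 CPM in WT, and the 2 mitochondrial ribosomal RNAs were both below 0, with a median of -0.51. The 6 fibroblast markers were all above 0, with a median of 0.44 and sums of 233 to 430 CPM in KO and 132 to 386.1 CPM in WT. The 7 keratinocyte genes had a median of 0.30, and 6 suprabasal keratins summed to 26098 to 45731 CPM in KO and 19875 to 39374 CPM in WT. None of these genes was called, and their part in the estimates of the 10 genes was not tested.

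On the keratinocyte scale, the estimates were above 0 for 4 genes and below for 6, with a median of -0.07 beside an all-gene median of -0.33. Without epidermis WT 1, a setting chosen after seeing the data, 9 were above 0 and Ivl below on that scale, with a median of 0.32 beside 0.05 over all genes. Lor was then at 0.33, against -0.68 with all libraries, and Kprp at 0.51, against -0.74, and none of the 10 was called in either setting. Animals carry numbers in 3 ranges, of which 1 holds 2 KO and 2 WT animals in each tissue, and within it 8 epidermis estimates were above 0 with a median of 0.18 and none was called, where 3.83% of 15760 genes were. Scel was nearest there, at 0.45 (edgeR adjusted p = 0.0898). An unadjusted edgeR p under 0.05 was found in that range for 1 of the 10 and for 2643 of all genes. In another range, epidermis had 1 library of each genotype, and the last held a KO library only, so neither gave a test. The labels do not say what a range marks. Xist was below Y-linked transcripts in all 3 WT and 2 of 4 KO epidermis libraries, so sex is unequal between these groups.

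In tongue, too, none of the 10 genes passed the test for KO against WT, where 0.0127% of 15741 genes did. Genes with an unadjusted p under 0.05 numbered 496 by edgeR and 470 by DESeq2, none of them among the 10, and DESeq2 called 4 genes of all. Estimates were above 0 for 5 genes and below for 5, with a median of 0.01, the same as over all genes. All 10 overlapped between KO and WT, where 2.29% of genes did not.

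Intervals in tongue were narrower than in epidermis for most of the 10. Scel was at 0.06 (SE 0.10, interval -0.16 to 0.28), from 151 ± 11.8 CPM in KO and 145 ± 12.7 CPM in WT (SD, n = 4 each). Sbsn was at 0.13 (interval -0.11 to 0.37), Cdsn at 0.03 (-0.30 to 0.35) and Dmkn at -0.04 (-0.35 to 0.27). Krtdap was at -0.24, Kprp at -0.19, Crct1 at -0.11 and Lor at 0.28. Cnfn was the exception, at 0.58 (SE 0.49, interval -0.55 to 1.72), with 26.5 ± 14.5 CPM in KO and 17.7 ± 9.03 CPM in WT. The interval of the other 9 lay within a 2-fold change, and the smallest edgeR adjusted p was 0.939. Within the range of animal numbers with 2 KO and 2 WT libraries, Cnfn was at 1.40, Lor at 0.67 and Krtdap at -0.59. None was called there, where 0.0939% of 15975 genes were. An unadjusted edgeR p under 0.05 was held in that range by 3 of the 10 and by 2056 of all genes.

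**Figure D4:**
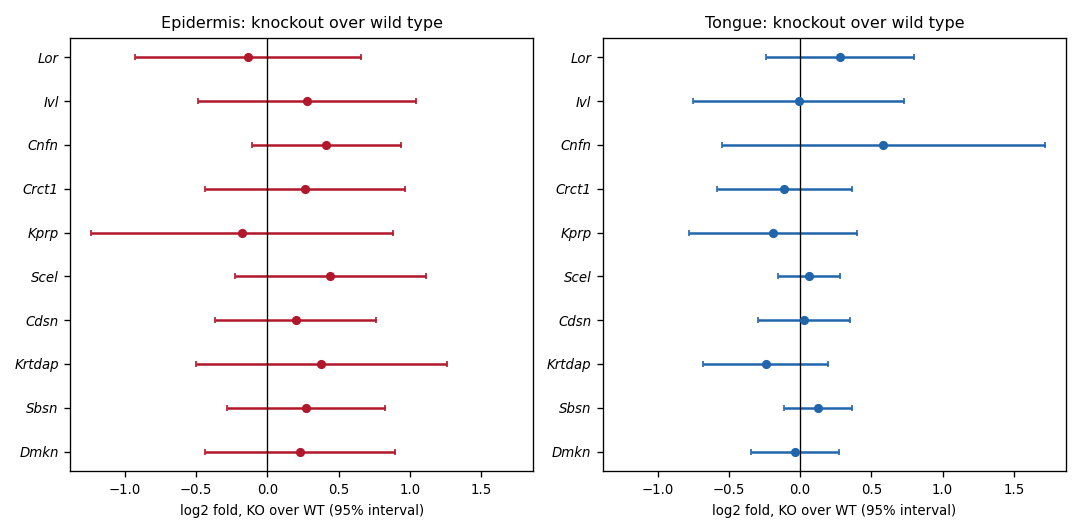
Log2 fold of KO over WT for each of the 10 genes (points, edgeR) with 95% intervals, in epidermis on the left and tongue on the right. Every interval spans 0, and the epidermis intervals reach from -1.24 to 1.26.

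Whether the KO effect differs between the tissues was tested directly. None of the 10 genes passed edgeR's test of that difference, where 0% of 17935 genes did. Of all genes, 299 had an unadjusted edgeR p under 0.05, none of them among the 10, and DESeq2 called 1 gene of all. Within the range of animal numbers with more than 1 library in every group, 1565 of 17849 genes had an unadjusted edgeR p under 0.05. They held 2 of the 10 genes, and none of the 10 was called. Krtdap had the largest estimate of epidermis minus tongue, 0.65 (SE 0.46, interval -0.34 to 1.63, unadjusted p = 0.182), with values of 0.38 in epidermis and -0.24 in tongue. Lor had the lowest, -0.39 (interval -1.32 to 0.55), from -0.14 in epidermis and 0.28 in tongue.

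Within a tissue the 10 genes did not all vary together. In epidermis WT 1, Lor and Kprp were at 0.75 and 1.02 relative to the mean of epidermis on the log2 scale, and Krtdap, Ivl and Scel at -1.18, -1.08 and -0.87. In tongue, WT 3 had the lowest Lor, Cnfn, Cdsn, Kprp and Sbsn and the highest Ivl. Tongue KO 3 had the highest Lor and Cnfn and the lowest Krtdap and Dmkn. These are descriptions of single libraries, with no test.

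**Figure D5:**
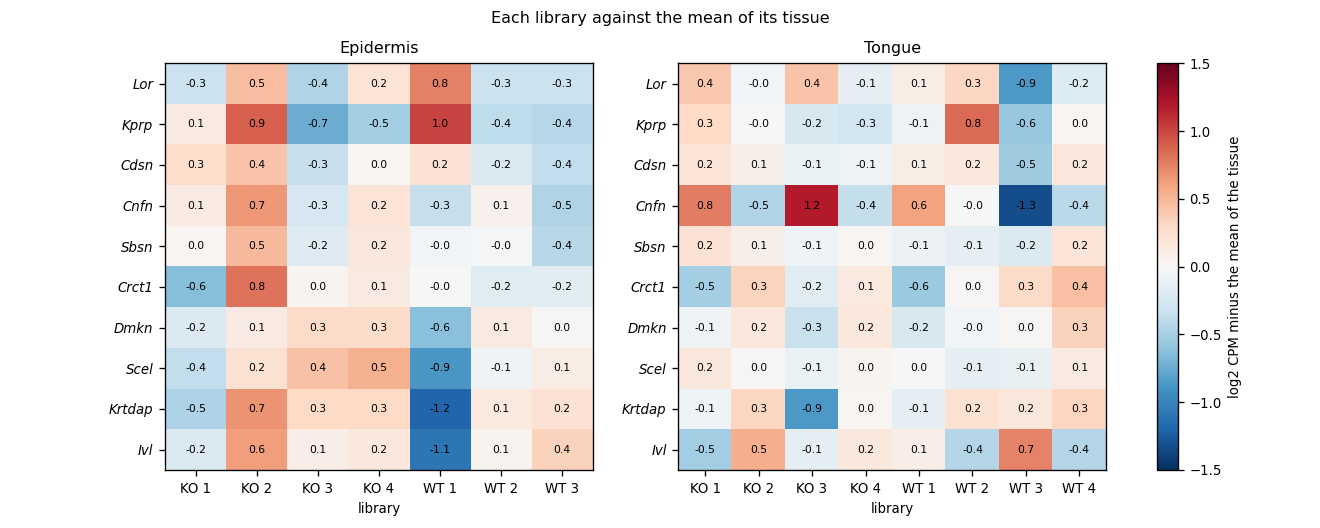
Log2 CPM of each gene in each library minus the mean of its tissue, with KO libraries left of WT libraries, in epidermis on the left and tongue on the right. Epidermis WT 1 is red for Lor and Kprp and blue for Ivl, Krtdap, Scel and Dmkn, and tongue WT 3 is blue for Cnfn and Lor.

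The rest of the cornified envelope gene set, a list of 50 genes of which 48 were in the table, behaved in a mixed way between the tissues. In WT, 45 were tested, 30 were higher in epidermis and 11 lower, with a median log2 of 2.79. Of all genes tested in WT, 32% were higher and 31.6% lower. In KO, 31 of 45 were higher and 11 lower, with a median of 3.61. Of all genes tested in KO, 32.7% were higher and 31.1% lower. Casp14, the caspase that helps process filaggrin, averaged 517 and 476 CPM in KO and WT epidermis against 1.54 and 1.35 CPM in KO and WT tongue, a log2 difference of 8.40 in KO and 8.48 in WT. Flg2, a filaggrin-like S100-fused protein, was at 11.73 in KO and 11.61 in WT. Of the late cornified envelope proteins, Lce1m was at 11.87 in KO and Lce6a at 11.05 in WT.

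Of the genes lower in epidermis, those with the smallest p were Sprr3, Lce3b and Lce3a. Sprr3, a small proline-rich protein, averaged 5.69 and 5.87 CPM in KO and WT epidermis against 687 and 669 CPM in KO and WT tongue (log2 -6.88 in KO and -6.78 in WT). Lce3b was at -6.24 in KO and -6.46 in WT, and Lce3a at -6.30 and -6.44. The largest edgeR adjusted p of these named values was 1.9e-06. None of the 10 genes described here was lower in epidermis on this scale.

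For KO against WT, none of the list was called in epidermis (46 tested, 34 above 0, median 0.12) or tongue (39 tested, 13 above 0, median -0.04), nor for the difference of the effects (47 tested). The 2 most abundant in epidermis, Flg2 and Hrnr, an S100-fused protein, were at -0.02 and 0.27. Flg2 averaged 6194 ± 1773 CPM in KO and 6169 ± 1190 CPM in WT epidermis (SD, n = 4 and 3). In tongue, Rptn, another S100-fused protein, and Sprr3 were at -0.07 and 0.04, and Rptn averaged 2183 ± 508 CPM in KO and 2296 ± 387.4 CPM in WT (SD, n = 4 each).

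Across the 15 libraries, the genes whose pattern was most like each of the 10 were found by the root mean square difference of centred log2(CPM + 0.5) values, among genes of at least 1 CPM on average. For Scel, Atp6v0d1 (0.15), a subunit of the vacuolar proton pump, averaged 67.5 CPM in KO epidermis and 38.5 CPM in KO tongue. For Krtdap they were Fabp5 (0.20), a fatty acid binding protein, and Elovl6 (0.22), a fatty acid elongase. For Sbsn they were Sdr9c7 (0.20), an enzyme of the skin lipid barrier, and Lipm (0.22), a lipase, and for Dmkn Calm4 (0.23), a calmodulin-like protein of skin, and Slc22a4 (0.24).

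For Lor the nearest were Xkrx (0.21) and Nccrp1 (0.27), for Kprp Cpa4 (0.24) and Rnf225 (0.28), for Cdsn Plcd3 (0.18) and Map3k8 (0.19), and for Crct1 Rffl (0.20) and Nod2 (0.24). For Cnfn they were Llgl2 (0.24), a cell polarity protein, and Foxn1 (0.27), a transcription factor of keratinocyte differentiation. Ivl had the least close neighbours, Casp14 (0.46) and Krt79 (0.46). These distances share the tissue difference and the same libraries, and describe likeness of pattern alone.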

How the data were processed

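RNA-seq libraries came from epidermis, separated from dermis after heating in EDTA, and whole tongue, with cDNA from a low-input SMARTer kit, TruSeq v2 libraries and NextSeq500 paired reads, per the labels' protocols. The submitters' processing notes name STAR 2.5.2a, the builds GRCm38.p3 and mm10, and the packages DESeq2, edgeR and limma. The counter, its strand setting and the annotation: not given in the sources used here. As deposited by the authors, the main table holds whole-read counts per gene, not normalized, which were tested here. The authors also deposited a signal table, the same counts scaled per library. It served only to look up symbols.

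Counts were filtered in each comparison (filterByExpr, minimum count 10), scaled by TMM and tested with edgeR 4.0.16 in R 4.3.3 (robust quasi-likelihood F test, two-sided), with Benjamini-Hochberg adjustment over all genes tested at 0.05. CPM values share 1 TMM scaling of all 15 libraries. The counts per kb used exon lengths of GENCODE M21. Intervals are at 95%. DESeq2 1.42.0 was an alternative, and the scripts' tests were checked on simulated data. The 2 transgene entries of the table took no part in library sizes or tests. Depth limits Ivl in tongue most. Groups and replicate numbers come from titles, animals from the number in the description, and nothing else states that samples of a group were separate animals, so the p-values speak of the spread among these samples, which may be technical.

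In epidermis, same-numbered KO and WT libraries deviated together (r of deviations 0.59, 0.19 and 0.35, each over 0.1), and a replicate block was run as an alternative. These libraries come from different animals by number, so the correlation does not show a pairing. In tongue r was 0.46, 0.11, -0.04 and 0.16. The 4 KO pairs of tissues are the same animals by number, with r of 0.07, 0.17, -0.10 and 0.11. Same-numbered WT libraries of the tissues are different animals. The members and gene lists were chosen with earlier results of these data known. Other envelope genes were named as up to 3 called per direction with the smallest p or, where none was called, the 2 most abundant. For each member, the 2 genes nearest in pattern were named, except 1 that is not reported here.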

Additional observations from a re-analysis of the deposited data

Results flagged for a closer look

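Corneodesmosin in WT tongue had 1 library far from the others. Tongue WT 3 was at 72.8 CPM, while the other 3 were at 114 to 118 CPM, and the gap took 0.924 of the group's range, above the critical value of 0.829. The same library was the lowest of WT tongue for Lor, Cnfn, Kprp and Sbsn. Of 30 such checks, run only in groups of 4 libraries, this was the only one above the critical value, where chance gives about 1 in 20. WT epidermis, with 3 libraries, was not checked, so epidermis WT 1 was not either.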

How the results depend on the processing

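For KO against WT in either tissue and for the difference of the effects, no alternative called any of the 10 genes. Under the replicate block, 0 were called in epidermis, 0 in tongue and 0 for the difference. With it, 8 were higher in WT epidermis than WT tongue and 9 in KO epidermis than KO tongue. Of all genes, 4359 of 16577 were higher in WT and 5148 of 16398 in KO. The block changed none of the counts of members, and in the WT tissues it joins libraries of different animals. With the animal as a block, 10 were higher in WT and 9 in KO, where 5526 of 16577 and 5148 of 16398 genes were. Within the range of animal numbers with more than 1 library in every group there were likewise 10 and 9. There, 5754 of 16987 genes were higher in WT and 4249 of 17033 in KO. The WT counts of both settings rest on the same animals, those that gave both tissues. Leaving out each replicate in turn gave 0 members called for the KO effects, 8 to 9 for WT tissues and 9 to 10 for KO tissues. Of 16272 to 17076 genes tested, 4598 to 5995 were then higher in WT epidermis. In KO epidermis 4852 to 5357 of 16649 to 17014 were. In epidermis, all genes called higher and lower in KO were 374 and 230 within that range of animal numbers. DESeq2 called 1 lower and the range block 1 lower. In tongue these were 6 and 9 within the range, and 4 lower by DESeq2. For the difference, DESeq2 called 1 higher, the range 16 higher and 3 lower, and leaving out epidermis KO 1 gave 1 higher, the range over replicates being 0 to 1.

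Scaling to keratinocyte genes changed the tissue results most. With 7 genes, 5 members were higher and 2 lower in WT (539 and 13010 of all genes), and 5 higher and 2 lower in KO (485 and 14668). With Krt5 and Krt14 left out, an alternative added after seeing the data, these were 5 and 2 in WT (638 and 12129) and 5 and 2 in KO (543 and 14154). With 7 genes and no epidermis WT 1, also added later, WT gave 4 and 4 (537 and 15515). The log2 values that turned negative in KO were -1.72 for Cnfn, -0.24 for Cdsn, -6.8e-05 for Krtdap, -0.43 for Crct1 and -1.51 for Scel with 7 genes, and -1.48 for Cnfn, -0.019 for Cdsn, -0.22 for Crct1 and -1.32 for Scel with 5. In WT with 7 genes they were -1.32 for Cnfn, -0.015 for Cdsn, -0.43 for Krtdap, -0.43 for Crct1 and -1.67 for Scel. With 5 genes they were -1.07 for Cnfn, -0.23 for Krtdap, -0.22 for Crct1 and -1.46 for Scel. Without epidermis WT 1 they were -1.62 for Cnfn, -0.68 for Cdsn, -0.30 for Krtdap, -0.89 for Crct1 and -1.68 for Scel. The scale itself lowers every gene's estimate, as the all-gene medians show. Depth limits Ivl in tongue, at 13 to 32 counts a library.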
